A study of Mus musculus with 6 samples.

Results

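The MS4A genes encode small membrane proteins of blood and other cells, and 8 of them were followed here among 23284 gene names: Ms4a3, Ms4a4b, Ms4a4c, Ms4a6b, Ms4a6c, Ms4a6d, Ms4a7 and Ms4a8a. They were taken by name, each as 1 row per library, and all 8 were found. The names had been picked with the difference between the treatment groups already in view, because Ms4a4c and Ms4a8a stood out in it. The differences of the 8 genes between the groups are therefore given as values, with no test. The RNA came from EGFP+ cells that a sorter had taken from the skull roof (calvaria) of CX3CR1-EGFP mice. EGFP is a green fluorescent reporter, carried here by cells with an active Cx3cr1 gene, such as monocytes. The CTLA4-Ig group (3 libraries) received lipopolysaccharide (LPS), a bacterial inflammatory agent, at the calvarial periosteum together with 10 mg/kg of CTLA4-Ig, a fusion protein that binds CD80 and CD86. The control IgG group (3 libraries) received the same LPS injection with 10 mg/kg of whole human IgG. Cells were taken 5 days later in both groups, so every library came from LPS-treated reporter mice. The titles call the libraries biological replicates, but no label says which or how many animals each came from, and p-values measure only the spread between these libraries. The age of the mice is not given in the sources used here.

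MS4A proteins cross the cell membrane several times, and the best known are CD20 of B cells (Ms4a1) and the β chain of the high-affinity IgE receptor of mast cells and basophils (Ms4a2). Many members associate with other receptors and modulate their signals. In the mouse, Ms4a3 marks granulocyte and monocyte progenitors, Ms4a4b and Ms4a6b are known from T cells, and Ms4a6d, Ms4a7 and Ms4a8a are known from macrophages. Ms4a4c and Ms4a6c are close relatives of Ms4a4b and Ms4a6b.

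All 8 genes lie in 1 cluster on chromosome 19 (build GRCm38, the NCBI name of mm10, positions from the RefSeq gene table), with 573 kb between the outer ends of Ms4a8a and Ms4a3. Ms4a8a (11067471 to 11081103), Ms4a7 (11321039 to 11336146), Ms4a6d (11586606 to 11604804) and Ms4a3 (11629499 to 11640851) are on the minus strand. The other 4 are on the plus strand and lie within 126 kb, in the order Ms4a4c (11404717 to 11427246), Ms4a4b (11443558 to 11463549), Ms4a6c (11469353 to 11487182) and Ms4a6b (11518559 to 11530403). Within these 126 kb the GENCODE M21 annotation of GRCm38 lists 5 protein-coding genes, and the fifth is Gm8369.

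The RefSeq promoter table held 7 of the 8 genes. The upstream sequences of the 4 neighbouring genes are shown because they fall into pairs of like sequence. Each is the 250 bases before a transcript start on the plus strand of GRCm38.p6, and capitals mark runs of at least 12 bases also found in the other gene of the pair. The Ms4a4c window is at chr19:11407411-11407660, inside the span that RefSeq gives the gene, and the Ms4a4b window is at chr19:11443308-11443557. The Ms4a6c window is at chr19:11469118-11469367, which runs slightly into the span of the gene, and the Ms4a6b window is at chr19:11518309-11518558.
Ms4a4c: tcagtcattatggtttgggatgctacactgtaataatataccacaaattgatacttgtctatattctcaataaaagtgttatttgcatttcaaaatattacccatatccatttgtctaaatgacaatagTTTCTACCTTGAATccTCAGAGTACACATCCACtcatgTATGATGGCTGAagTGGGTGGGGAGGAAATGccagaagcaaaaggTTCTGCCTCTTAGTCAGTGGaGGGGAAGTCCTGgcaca
Ms4a4b: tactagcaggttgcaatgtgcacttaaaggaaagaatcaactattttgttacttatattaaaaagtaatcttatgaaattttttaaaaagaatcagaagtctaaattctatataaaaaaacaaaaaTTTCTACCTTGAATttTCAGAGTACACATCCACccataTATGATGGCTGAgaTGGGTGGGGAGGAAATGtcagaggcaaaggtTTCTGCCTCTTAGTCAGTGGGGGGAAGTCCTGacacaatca
Ms4a6c: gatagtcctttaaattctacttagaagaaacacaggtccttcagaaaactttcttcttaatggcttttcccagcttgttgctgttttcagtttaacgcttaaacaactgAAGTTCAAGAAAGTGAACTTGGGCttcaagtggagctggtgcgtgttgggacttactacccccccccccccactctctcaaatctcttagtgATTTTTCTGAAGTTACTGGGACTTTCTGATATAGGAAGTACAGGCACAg
Ms4a6b: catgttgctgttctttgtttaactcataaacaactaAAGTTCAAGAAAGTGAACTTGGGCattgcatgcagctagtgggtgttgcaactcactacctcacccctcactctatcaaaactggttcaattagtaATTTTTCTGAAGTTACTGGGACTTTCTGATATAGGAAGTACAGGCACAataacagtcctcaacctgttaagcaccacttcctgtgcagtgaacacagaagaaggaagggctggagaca
Ms4a4c and Ms4a4b had 92 of their 250 bases in shared runs. Ms4a6c and Ms4a6b had 72, of which 48 formed a single run. Between the 2 pairs, 0 bases fell in such runs. The letters AGGAAG, 1 form of the sites that ETS factors such as PU.1 bind, were searched on both strands in these 250 bases. They were present for 4 of 7 genes (Ms4a3, Ms4a6b, Ms4a6c and Ms4a8a), against 29.2% of 27025 promoters of the same length. Ms4a6b and Ms4a6c both had a match within their shared run of 48 bases, so these 2 genes are not separate cases. Other forms of the site were not searched. A pair of GAAA blocks with 2 free bases between them, the core of an interferon-stimulated response element, was present for 0 of 7 genes and in 3.04% of promoters. TTGCNNAA, a C/EBP site, was present for 0 of 7 and in 9.55%, and TGANTCA, an AP-1 site, for 1 of 7 (Ms4a8a) and in 6.87%. These are matches of letters only.

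The mature transcripts also share stretches, which matters for how reads were assigned. Of all 50-base stretches of its protein-coding transcripts, Ms4a4c had 8.13% in common with other MS4A transcripts, Ms4a6c 6.08%, Ms4a6b 5.66%, Ms4a4b 4.19% and Ms4a6d 2.69%. Ms4a3, Ms4a7 and Ms4a8a shared 0. The 2 larger overlaps were between Ms4a4c and Ms4a4b (134 stretches) and between Ms4a6b and Ms4a6c (109 stretches), so the values of these pairs are uncertain to that extent. By GENCODE M21 gene spans, introns included, Ms4a6c overlaps BE692007 on the opposite strand over 12027 bases. Ms4a6b overlaps Gm19261 over 442 and Ms4a4c overlaps Gm5692 over 235. The overlap of exons alone was not measured, and none of these partners is among the gene names with values. Whether the authors' counting used strand is not given in the sources used here. Without strand, reads from stretches that are exons of both partners could not be told apart.

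Depth and cell content bear on every value below. Sequencing depth was estimated from how low FPKM values are spaced, within a window set beforehand that bounds the estimate. Depth came to between 8480000 and 10200000 fragments in the CTLA4-Ig libraries and between 8540000 and 9230000 in the control IgG libraries. Cx3cr1, the gene behind the reporter, stood at 24.1, 16.6 and 26.5 FPKM in CTLA4-Ig libraries 1, 2 and 3 and at 12.3, 23.8 and 32.5 FPKM in control libraries 1, 2 and 3, so it was present in all 6. Control library 1 stood apart. In 37 of 8459 genes it was at least 2-fold above each of the other 5 libraries on the scale of FPKM + 1, and in 19 at least 2-fold below, while the other libraries had 4 to 6 and 3 to 6 such genes. The differences of the 8 genes are given with and without it, and so are the marker list medians that it moved. In bulk RNA, fewer cells of a type and less RNA per cell cannot be told apart.

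The order of levels within the family was nearly the same in all libraries. FPKM divides by transcript length, so levels of different genes can be set side by side on that scale. Ms4a6c had the highest mean level, at 381 ± 49.0 FPKM in CTLA4-Ig libraries and 485 ± 24.6 FPKM in control libraries (SD, n = 3 each). Ms4a3 came next, at 208 ± 42.1 and 222 ± 59.7 FPKM (CTLA4-Ig and control IgG, SD, n = 3 each). After these came Ms4a6b, Ms4a4c, Ms4a6d, Ms4a8a, Ms4a4b and Ms4a7. This order held in 5 of 6 libraries. In control library 1, Ms4a8a and Ms4a6d stood above Ms4a6b and Ms4a4c. The ranges over the 6 libraries did not overlap between Ms4a6c and Ms4a3, Ms4a3 and Ms4a6b, Ms4a8a and Ms4a4b, or Ms4a4b and Ms4a7. They overlapped between Ms4a6b and Ms4a4c, Ms4a4c and Ms4a6d, and Ms4a6d and Ms4a8a. Library by library, Ms4a6b stood above Ms4a4c in each of the 6. Ms4a4c stood above Ms4a6d, and Ms4a6d above Ms4a8a, in 5 of 6. Ms4a6c alone made up 49.1, 43.6 and 42.3% of the family's summed FPKM in CTLA4-Ig libraries 1, 2 and 3, against 39.4, 48.1 and 49.3% in control libraries 1, 2 and 3.

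**Figure D1:**
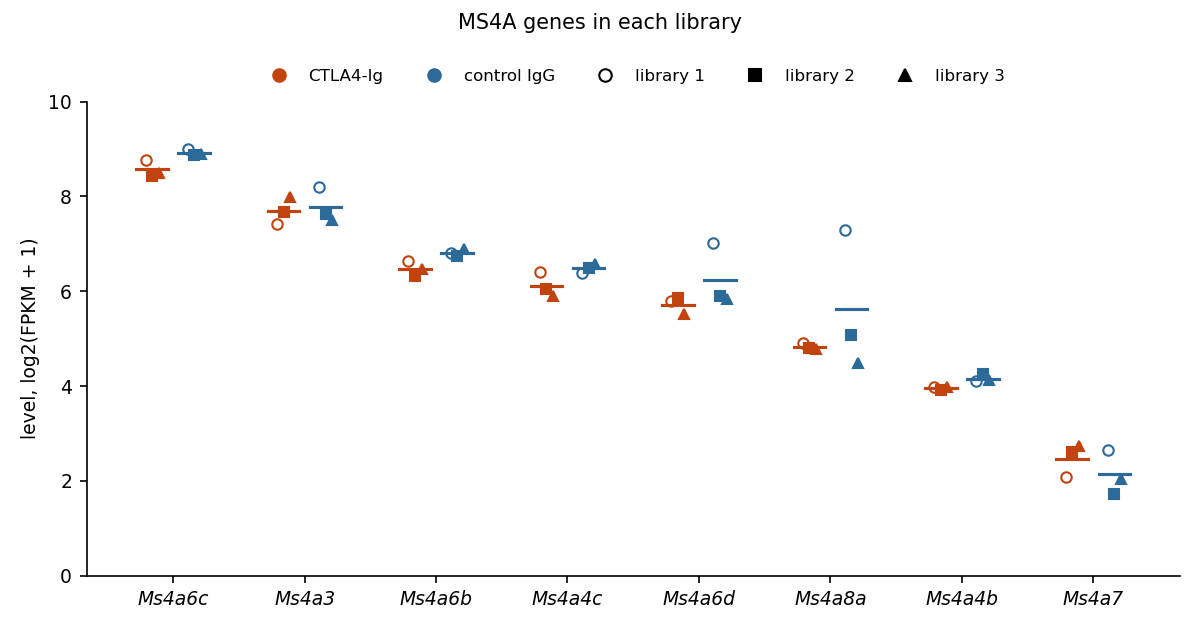
Levels of the 8 MS4A genes in each library as log2(FPKM + 1), with CTLA4-Ig libraries in red-brown on the left and control IgG libraries in blue on the right of each gene. Marker shapes give the library number and bars the group means. Control library 1 stands far above the rest for Ms4a8a (7.29) and Ms4a6d (7.01), while Ms4a6c, Ms4a6b and Ms4a4b are separate between the groups.

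The 4 neighbours on the plus strand were all lower in mean with CTLA4-Ig, with log2 fold changes of -0.38 to -0.34 for Ms4a4c, Ms4a6c and Ms4a6b and of -0.20 for Ms4a4b. Ms4a6c, abundant in mouse monocytes, had log2(FPKM + 1) levels of 8.78, 8.44 and 8.49 in CTLA4-Ig libraries 1, 2 and 3, against 9.0, 8.87 and 8.90 in control libraries 1, 2 and 3. Every CTLA4-Ig library lay below every control library, and the log2 fold change, CTLA4-Ig over control, was -0.35 ± 0.10 (SE). Ms4a6b, also known from mouse T cells, had levels of 6.64, 6.32 and 6.46 with CTLA4-Ig, against 6.80, 6.74 and 6.90 with control IgG. Its groups did not overlap either, with a log2 fold change of -0.34 ± 0.09 (SE) and means of 88.1 ± 10.1 FPKM in CTLA4-Ig libraries and 112 ± 6.26 FPKM in control libraries (SD, n = 3 each).

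Ms4a4b, whose protein associates with the receptor GITR on mouse T cells, had log2(FPKM + 1) levels of 3.98, 3.91 and 3.98 with CTLA4-Ig, against 4.10, 4.25 and 4.12 with control IgG. The groups did not overlap, but the difference was small, with a log2 fold change of -0.20 ± 0.07 (SE). In FPKM it stood at 14.5 ± 0.402 in CTLA4-Ig libraries and 16.9 ± 1.0 in control libraries (SD, n = 3 each). Ms4a4c had levels of 6.40, 6.04 and 5.90 with CTLA4-Ig, against 6.39, 6.5 and 6.58 with control IgG. CTLA4-Ig library 1 lay just above control library 1, the lowest control, and the other 2 CTLA4-Ig libraries lay below all 3 controls. The log2 fold change of Ms4a4c was -0.38 ± 0.13 (SE), from means of 69.1 ± 13 FPKM in CTLA4-Ig libraries and 89.1 ± 6.08 FPKM in control libraries (SD, n = 3 each). Without CTLA4-Ig library 1 it was -0.52, and without CTLA4-Ig library 3 it was -0.27.

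These 4 genes varied little over the 6 libraries, with SDs on the log2 scale of 0.11 for Ms4a4b, 0.20 for Ms4a6b, 0.21 for Ms4a6c and 0.25 for Ms4a4c, against 0.27 to 0.94 for the other 4. After each gene's mean over the 6 libraries was taken away, the root mean square difference on the log2 scale was 0.07 between Ms4a6b and Ms4a6c, 0.11 between Ms4a4c and Ms4a6b, and 0.12 between Ms4a4c and Ms4a6c. For the pairs with Ms4a4b it was 0.14 to 0.18, above the SD of Ms4a4b itself. These distances are bounded by each gene's own spread and include the difference between the groups on which the genes were picked, so they are a description. Within the CTLA4-Ig group, library 1 was the highest of the 3 for Ms4a6c, Ms4a6b and Ms4a4c. Leaving out control library 1 changed their log2 fold changes little, to -0.31 for Ms4a6c, -0.35 for Ms4a6b, -0.23 for Ms4a4b and -0.43 for Ms4a4c.

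**Figure D2:**
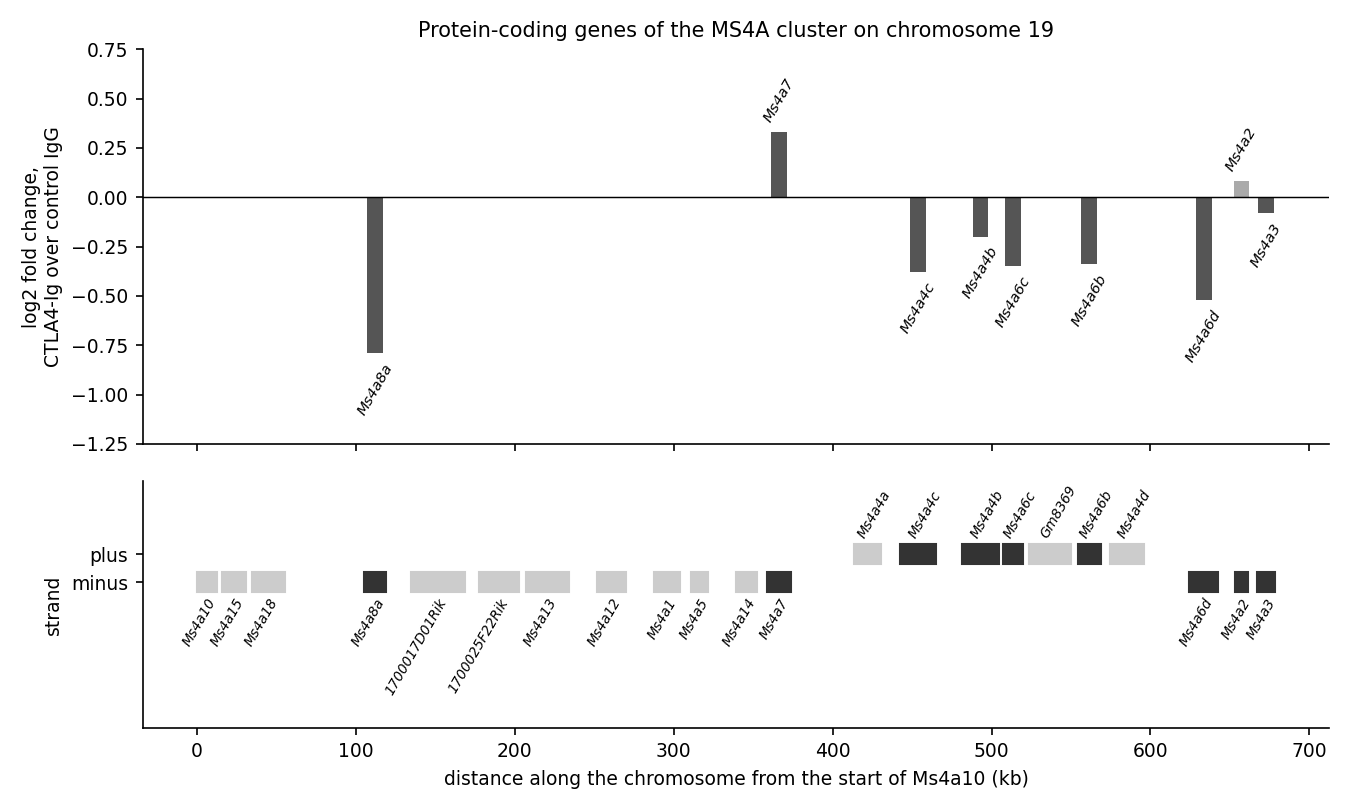
Protein-coding genes of the MS4A cluster by distance from the start of Ms4a10, with the log2 fold change of CTLA4-Ig over control IgG above and the strand below. Light bars are not among the 8 genes, dark boxes are genes averaging 1 FPKM or more, and grey boxes are genes below that level or not analysed here. The 4 plus-strand genes of the 8, from Ms4a4c to Ms4a6b, stand at -0.38 to -0.20. Gm8369, below 1 FPKM, lies between Ms4a6c and Ms4a6b. Ms4a7 at 0.33 and Ms4a6d at -0.52 lie further out, with other genes without a fold change in between.

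Ms4a8a and Ms4a6d differed between the groups mainly through control library 1. Ms4a8a, found on alternatively activated and tumour-associated macrophages in the mouse, had 28.9, 26.8 and 26.5 FPKM with CTLA4-Ig, against 155, 32.7 and 21.3 FPKM in control libraries 1, 2 and 3. On the log2 scale these were 4.90, 4.80 and 4.78, against 7.29, 5.08 and 4.48. Control library 1 was 4.74-fold above the next highest library, the other 2 controls lay on either side of the CTLA4-Ig libraries, and the groups overlapped. The log2 fold change of Ms4a8a was -0.79 ± 0.66 (SE) with all libraries and 0.05 without control library 1, so its direction turned. The 3 CTLA4-Ig libraries differed by less than in any other of the 8 genes except Ms4a4b, with an SD of 0.07 on the log2 scale for Ms4a8a and 0.04 for Ms4a4b.

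Ms4a6d, a gene of mouse macrophages, had log2(FPKM + 1) levels of 5.79, 5.85 and 5.52 with CTLA4-Ig, against 7.01, 5.90 and 5.83 with control IgG. In control library 1 it was 2.17-fold above the next highest library, and the CTLA4-Ig and other control values overlapped. The means were 52.0 ± 6.24 FPKM in CTLA4-Ig libraries and 80.8 ± 40.6 FPKM in control libraries (SD, n = 3 each). The log2 fold change was -0.52 ± 0.31 (SE) with all libraries and -0.15 without control library 1. Among the 37 genes that stood at least 2-fold above all others in control library 1, Ms4a8a ranked 8 and Ms4a6d 32 by the size of the gap.

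Ms4a3 and Ms4a7 did not follow the others. Ms4a3, the progenitor gene, had log2(FPKM + 1) levels of 7.41, 7.67 and 7.98 with CTLA4-Ig, against 8.19, 7.62 and 7.5 with control IgG. The groups overlapped fully apart from control library 1, and the log2 fold change was -0.08 ± 0.21 (SE), or 0.13 without control library 1. Ms4a7, the lowest of the 8, had levels of 2.08, 2.60 and 2.73 with CTLA4-Ig, against 2.66, 1.72 and 2.04 with control IgG. Its log2 fold change was 0.33 ± 0.27 (SE), the only positive value of the 8, with overlapping groups, and 0.59 without control library 1. At 34 to 90 estimated fragments per library Ms4a7 carries a counting error of 11 to 17% in a library, while the other 7 genes had at least 210 fragments each.

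**Figure D3:**
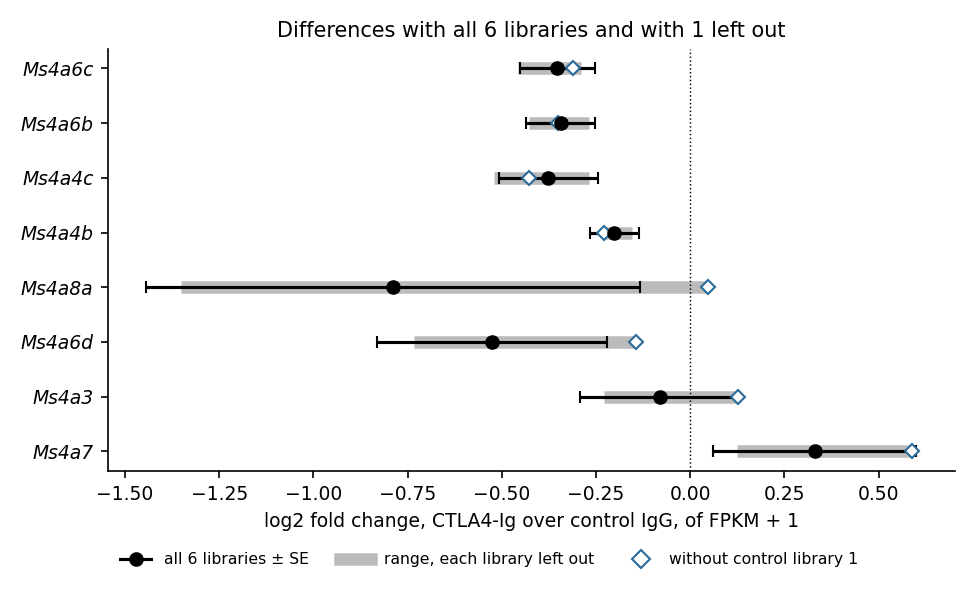
Log2 fold changes of FPKM + 1, CTLA4-Ig over control IgG, for the 8 genes. Black points with bars are all 6 libraries ± SE, grey bands the range when each library is left out in turn, and open diamonds the value without control library 1. The 4 plus-strand neighbours stay below 0 in every setting drawn, while Ms4a8a (0.05) and Ms4a3 (0.13) are above 0 without control library 1.

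Across the family, 7 of 8 log2 fold changes were negative and 1 positive, with a median of -0.35. Without control library 1, 5 of 8 were negative and the median was -0.19. Of the 10865 genes that averaged 1 FPKM or more, 52.3% were negative and the median was -0.01. In 3 of the 8 genes (Ms4a4b, Ms4a6b and Ms4a6c) the CTLA4-Ig libraries all lay below the control libraries, as did 5.69% of all genes tested. Without control library 1, 4 genes lay below without overlap (Ms4a4c in addition), against 13.1% of all genes, and 1 (Ms4a7) lay above, against 13% of all genes. Without control library 3, 5 genes lay below (Ms4a6d and Ms4a8a in addition to the 3), against 10.9% of all genes. The genes had been picked on this contrast, so nothing is read from these counts. Limma called 0 of the 10865 genes at a Benjamini-Hochberg adjusted p under 0.05 (0%), with 659 genes at an unadjusted p under 0.05.

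Apart from Ms4a2, the rest of the family with values gave little signal. Of 8 other gene names that begin with Ms4a, 4 (Ms4a5, Ms4a10, Ms4a13 and Ms4a18) were listed at 0 in all 6 libraries. Ms4a1, which encodes CD20, stood at 0.108 to 0.748 FPKM with CTLA4-Ig and 0.0545 to 0.568 FPKM with control IgG. Ms4a4d and Ms4a15 stayed below 0.2 FPKM in every library. Ms4a2 was the only one of them with a mean of at least 1 FPKM, at 10.9, 17.8 and 20.1 FPKM with CTLA4-Ig, against 16.1, 17.5 and 11.7 FPKM with control IgG. The Ms4a2 groups overlapped, with a log2 fold change of 0.08 ± 0.24 (SE, limma, Benjamini-Hochberg adjusted p = 0.98). Ms4a4a, Ms4a12 and Ms4a14, which GENCODE M21 places in the cluster, are not among the gene names with values, so their levels are not known.

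The more distant relatives Tmem176a and Tmem176b, known from dendritic cells, differed between the groups by less than the spread between libraries. The log2 fold change was 0.00 ± 0.09 (SE) for Tmem176a, at 31.0 to 34.6 FPKM with CTLA4-Ig and 29.1 to 35.0 FPKM with control IgG (limma, adjusted p = 1). For Tmem176b it was 0.05 ± 0.14 (SE), at 62.7 to 80.4 FPKM with CTLA4-Ig and 59.3 to 82.2 FPKM with control IgG (limma, adjusted p = 0.978).

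Markers of other cell types were read in the same libraries, as lists described by counts and medians, and limma called 0 of their genes. Neutrophil markers had 12 of 12 positive log2 fold changes with a median of 0.56, and their summed level was 173100 to 239400 FPKM with CTLA4-Ig and 133800 to 152800 FPKM with control IgG. With quantile normalization that median was 0.27. Most of the neutrophil sum came from S100a8 and S100a9. S100a8 stood at 68260 to 95530 FPKM with CTLA4-Ig and 54770 to 62240 FPKM with control IgG. S100a9 stood at 63390 to 90750 FPKM with CTLA4-Ig and 48500 to 56730 FPKM with control IgG. Classical monocyte markers had 7 of 8 negative values with a median of -0.14, and sums of 3722 to 4131 FPKM with CTLA4-Ig and 4037 to 4816 FPKM with control IgG. The groups did not overlap in the neutrophil sum and overlapped in the monocyte sum. The part of these cells in the differences of Ms4a4c, Ms4a4b, Ms4a6c and Ms4a6b was not tested. Ly6c2, a surface marker of classical monocytes, stood at 2157 to 2304 FPKM with CTLA4-Ig and 2167 to 2335 FPKM with control IgG. F13a1, the coagulation factor XIII A chain made by monocytes, stood at 414 to 608 FPKM with CTLA4-Ig and 526 to 777 FPKM with control IgG.

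T cell markers, listed because Ms4a4b and Ms4a6b are known from T cells, were low. Of 9 with a mean of at least 1 FPKM, 4 were positive and 5 negative, with a median log2 fold change of 0.00 (-0.17 without control library 1) and sums over all 14 markers of 25.6 to 33.0 FPKM with CTLA4-Ig and 19.4 to 36.7 FPKM with control IgG. The T cell receptor chain genes Cd3d, Cd3e and Cd3g, looked up after the lists, stood at 0.26 to 2.67 FPKM with CTLA4-Ig and 0.51 to 2.60 FPKM with control IgG. None of the 14 was at 0 in every library. NK cell markers had 2 of 7 positive with a median of -0.21, and sums of 95.5 to 142 FPKM with CTLA4-Ig and 117 to 136 FPKM with control IgG. Their highest gene, Nkg7, a membrane protein of cytotoxic granules, stood at 72.5 to 108 FPKM with CTLA4-Ig and 87.8 to 95.7 FPKM with control IgG.

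For Ms4a3, myeloid progenitor markers had 4 of 9 positive with a median of -0.01, or 0.02 without control library 1. Their sums were 2617 to 3554 FPKM with CTLA4-Ig and 2919 to 3633 FPKM with control IgG, with the top value in control library 1, as for Ms4a3. Prtn3, the granule protease proteinase 3, stood at 733, 827 and 973 FPKM with CTLA4-Ig, against 1172, 795 and 820 FPKM with control IgG, and so ranked the libraries as Ms4a3 did except for control libraries 2 and 3. Mast cell, basophil and eosinophil markers, the cells of Ms4a2, had 9 of 10 positive with a median of 0.29, and sums of 1225 to 1785 FPKM with CTLA4-Ig and 963 to 1472 FPKM with control IgG. Their median was 0.19 without control library 1. B cell markers had 1 of 4 positive with a median of -0.08, or -0.19 without control library 1.

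For the macrophage genes, macrophage markers had 6 of 10 positive with a median of 0.245. Their sums were 587 to 866 FPKM with CTLA4-Ig and 575 to 964 FPKM with control IgG, the highest in control library 1. Most of that top sum was Apoe, at 319 to 520 FPKM with CTLA4-Ig, against 691, 345 and 351 FPKM with control IgG. Cd68, the next highest gene, did not peak there, at 128 to 145 FPKM with CTLA4-Ig, against 132, 148 and 155 FPKM with control IgG. The macrophage median was -0.07 over markers averaging 5 FPKM or more and 0.04 with no filter. Alternative activation markers had 4 of 6 positive with a median of 0.18, or -0.02 over those averaging 5 FPKM or more. Their sum was 5025 to 5588 FPKM with CTLA4-Ig and 4249 to 14310 FPKM with control IgG, nearly all of it Chi3l3, which encodes a chitinase-like lectin. Chi3l3 stood at 4961, 5226 and 5521 FPKM with CTLA4-Ig, against 14240, 5420 and 4186 FPKM with control IgG, so it peaked in control library 1 as Ms4a8a did. The part of Chi3l3 in the level of Ms4a8a was not tested. Clec10a, the next highest gene of that list, went the other way and was lowest in control library 1. Clec10a stood at 22.2, 22.2 and 20.8 FPKM with CTLA4-Ig, against 16.4, 19.9 and 21.2 FPKM with control IgG. Non-classical monocyte markers had 7 of 7 positive with a median of 0.21, but the median was -0.06 without control library 1. Their sums were 246 to 332 FPKM with CTLA4-Ig, against 184, 282 and 314 FPKM in control libraries 1, 2 and 3. Dendritic cell markers had 5 of 7 positive with a median of 0.14, or -0.02 without control library 1. Their sums leaned the other way, at 58.0 to 75.0 FPKM with CTLA4-Ig and 72.3 to 77.7 FPKM with control IgG. Of the epithelial and ciliated cell markers only Cdh1 reached a mean of 1 FPKM, and Dnahc5 was listed at 0 in all libraries.

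Interferon-stimulated genes had 10 of 19 positive with a median log2 fold change of 0.02, and the median was -0.36 without control library 1. Their summed level was 203, 171 and 161 FPKM in CTLA4-Ig libraries 1, 2 and 3, against 110, 210 and 240 FPKM in control libraries 1, 2 and 3. Ms4a4c stood at 83.7, 64.8 and 58.8 FPKM in the same CTLA4-Ig libraries, against 82.7, 89.8 and 94.8 FPKM in the control libraries. Outside control library 1, where the interferon-stimulated sum was lowest, both ranked the other 5 libraries in the same order. This was not particular to Ms4a4c: Ms4a6b and Ms4a6c ranked these 5 libraries alike except that CTLA4-Ig libraries 2 and 3 changed places. The part of the regulation of interferon-stimulated genes in the levels of Ms4a4c, Ms4a6b and Ms4a6c was not tested.

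For the 3 genes whose log2 range over the 6 libraries was at least 1, the most similar of 8452 other genes averaging 5 FPKM or more were taken by the root mean square difference of centred log2 levels. For Ms4a8a, whose own SD was 0.94, these were Cd38 (difference 0.30), Bst1 (0.33) and Pla2g7 (0.35). Cd38 and its relative Bst1 encode surface enzymes that consume NAD, and Pla2g7 encodes an enzyme that breaks down platelet-activating factor. Cd38 stood at 2.16, 3.62 and 3.44 FPKM with CTLA4-Ig, against 21.9, 2.25 and 1.74 FPKM with control IgG. Bst1 stood at 13.8 to 18.3 FPKM with CTLA4-Ig, against 52.4, 12.2 and 11.2 FPKM with control IgG. Pla2g7 stood at 41.9 to 58.9 FPKM with CTLA4-Ig, against 158, 54.3 and 39.7 FPKM with control IgG. All 3 had their highest value in control library 1, as Ms4a8a did, and this likeness over 6 libraries is a description.

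**Figure D4:**
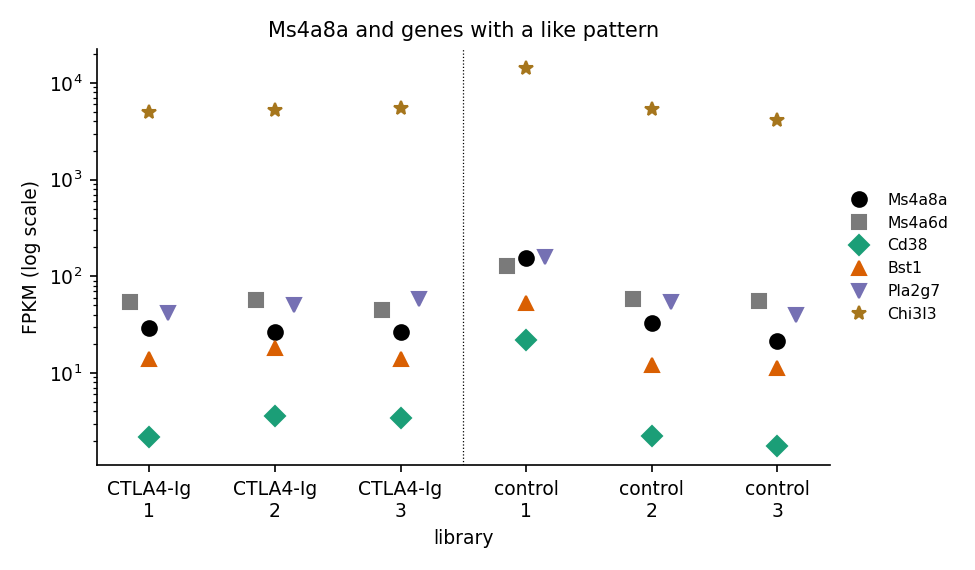
FPKM per library on a log axis for Ms4a8a, Ms4a6d, the 3 genes most like Ms4a8a over the 6 libraries, and Chi3l3. CTLA4-Ig libraries are left of the dotted line and control libraries right of it. Each gene has its highest point in control library 1, at 155 FPKM for Ms4a8a and 21.9 FPKM for Cd38.

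For Ms4a6d, whose own SD was 0.47, the closest genes were Camk2d, which encodes a calcium-dependent kinase (difference 0.12), 6430527G18Rik (0.13) and Ecm1, an extracellular matrix protein gene (0.13). Camk2d stood at 8.07 to 10.6 FPKM with CTLA4-Ig, against 20.4, 11.9 and 10.0 FPKM with control IgG, again with its top in control library 1. For Ms4a7, whose own SD was 0.38, close genes included Trp53inp1, a target of p53 (0.15), and the metallothionein gene Mt2 (0.15). Trp53inp1 stood at 11.5, 14.2 and 17.0 FPKM with CTLA4-Ig, against 15.3, 10.3 and 11 FPKM with control IgG.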

How the data were processed

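RNA of sorted EGFP+ calvarial cells was measured in 6 libraries; per the labels' protocols the kit was TruSeq stranded mRNA. The submitters' processing notes name Cuffnorm 2.2.1, SAMtools 0.1.19, Bowtie2 2.2.3 and TopHat2 2.0.13, and the build mm10. The deposited values are FPKM, made by the authors, 1 per gene name. The annotation is not given in the sources used here. Groups came from the treatment label. Low FPKM times GENCODE length clustered at the worth of 1, 2 or 3 fragments, which gave the depths. The worth of 1 fragment was the median within a window set beforehand, so the depths are bounded by it and rough. Of the low values 76.0 to 82.6% per library lay within 0.15 of a whole number of fragments, so no counts were rebuilt. Log2(FPKM + 1) values were fitted with limma 3.58.1 (R 4.3.3, eBayes with a trend, 1 factor for group) over genes averaging 1 FPKM or more, with Benjamini-Hochberg adjustment. Such log2 fold changes understate those of low genes. All 8 MS4A genes passed that filter. The script was tested on simulated data. The members, the lists and the tests were chosen with earlier results of these data known. Named genes were drawn from the 8 members, other MS4A genes reaching 1 FPKM, the 2 highest genes of each of 13 marker lists (132 of 133 names matched, 5 through an older symbol) and the 3 genes most like each member with a log2 range of at least 1. Some genes that this rule names are not reported here. Cx3cr1, Cd3d, Cd3e, Cd3g, Ms4a1, Ms4a4d, Ms4a15 and the genes listed at 0 were named after their values were seen. Alternatives left out each library, added a replicate block, dropped the trend, used quantile normalization or median-of-ratios scaling, a filter of 5 FPKM or none, or pseudocounts of 0.5 and 0.1. Python 3.11.15, pandas 2.3.3, numpy 2.4.6 and matplotlib 3.10.9 were used.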

Additional observations from a re-analysis of the deposited data

How the results depend on the processing

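With 3 libraries per group, single libraries set the limits. Limma called 0 genes under the pseudocount, filter, scaling, prior and block alternatives. It called 0 to 6 when a library was left out, all of them small RNA genes or Gm9781. Of all genes, 5.69% were lower without overlap with all libraries, and 9.02 to 13.1% with a library left out. The count of MS4A genes whose groups do not overlap was 3 with all libraries and 3 to 5 with a library left out. It was 5 without control library 1 (Ms4a4b, Ms4a4c, Ms4a6b and Ms4a6c lower, Ms4a7 higher) and 5 without control library 3 (Ms4a6d and Ms4a8a in place of Ms4a4c and Ms4a7). Of all genes, 13.1 and 10.9% were lower without overlap in those 2 settings, and 13% were higher in the first. The count was 4 with quantile normalization, without CTLA4-Ig library 1 and without CTLA4-Ig library 2, where 6.04, 11.8 and 9.02% of all genes were lower without overlap. The log2 fold change ranged over left-out libraries from -1.35 to 0.05 for Ms4a8a, -0.73 to -0.15 for Ms4a6d, -0.23 to 0.13 for Ms4a3, 0.12 to 0.59 for Ms4a7 and -0.52 to -0.27 for Ms4a4c. For Ms4a6b it was -0.43 to -0.27, for Ms4a6c -0.46 to -0.29 and for Ms4a4b -0.23 to -0.155. The median of the 8 was -0.44 to -0.19. Marker list medians also changed sign with a library left out: -0.36 to 0.22 for interferon-stimulated genes, -0.06 to 0.40 for non-classical monocytes, -0.04 to 0.36 for dendritic cells, -0.17 to 0.17 for T cells, -0.19 to 0.01 for B cells and -0.15 to 0.09 for progenitors. Ms4a3 turned to 0.06 without CTLA4-Ig library 1. With single libraries left out, values near 0 changed sign for Ms4a2 (-0.0901 to 0.325), Tmem176a (-0.0848 to 0.0431) and Tmem176b (-0.0773 to 0.161). Same-numbered libraries did not deviate together (r = -0.15, -0.09 and -0.02 across genes, numbers 1, 2 and 3), so the numbers were not taken as pairs. With the replicate block 0 genes were called, and the log2 fold changes were the same by construction, with an SE of 0.07 for Ms4a6c and 0.53 for Ms4a8a.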
